A study of Mus musculus with 4 samples.

Results

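The BBSome is a protein coat that carries membrane receptors into and out of the primary cilium, the antenna-like organelle from which the photoreceptor outer segment is built. Its subunits do not assemble unaided: a complex of 3 chaperonin-like proteins, Mkks (Bbs6), Bbs10 and Bbs12, works together with the general CCT chaperonin to build the core of the coat. Loss of a coat subunit or of a chaperonin-like protein causes Bardet-Biedl syndrome, in which retinal degeneration is a defining sign. The genes described here were taken by symbol from the deposited gene table: 7 coat subunits (Bbs1, Bbs2, Bbs4, Bbs5, Bbs7, Ttc8, which is Bbs8, and Bbs9) and the 3 chaperonin-like genes, 10 of the 18471 genes in the table. All 10 had enough counts to be tested.

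The series compared bulk RNA from retinas of mouse embryos at embryonic day 19. One group was labelled wild-type and the other Foxn3KO, genotype Foxn3-/-, on a C57BL/6NJ background with the allele Foxn3em1(IMPC)Bay, a deletion of exon 3 of the forkhead factor gene Foxn3. Each group had 2 libraries, each from an individual genotyped embryo, so the spread below is that between embryos. Total counts ranged from 22543531 to 29360129 per library. The targeted gene went against a loss of its RNA: Foxn3 had 97.6 and 99.8 CPM (counts scaled to the size of the library) in the libraries labelled wild-type and 144 in each of those labelled Foxn3KO, a log2 fold change of 0.54 (edgeR adjusted p = 7.83e-08). Counts per gene cannot show whether exon 3 is missing, and the groups are therefore named by their labels, on which every direction rests.

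The libraries held retinal RNA. The 12 retinal marker genes summed to 3532 and 3663 CPM in wild-type and 3622 and 3672 CPM in Foxn3KO libraries, and 2 of them passed the test, Six3 higher and Isl1 lower. Lens markers moved with the groups: 6 of 6 tested were higher in Foxn3KO libraries, with sums of 4.11 and 56.5 CPM in wild-type and 194 and 191 CPM in Foxn3KO libraries. Markers of the pigment epithelium summed to 54.5 and 79.6 against 40.8 and 43.1 CPM, with 4 of 7 lower. Of the choroid plexus markers, 2 of 5 tested were higher and 2 lower; 1 of 6 vessel and mesenchyme markers was higher, none of the 4 microglial, 4 blood and 2 muscle markers passed (edgeR), and no airway or nasal marker was in the table. No marker in the table was at 0 counts in any library. Wild-type replicate 1 had 83073 Xist and 0 Ddx3y counts, whereas the other libraries had 9 to 19 Xist and 1780 to 2317 Ddx3y counts, so 1 library differed in sex pattern.

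The first comparison asked whether the coat and its chaperonins differed by genotype. All 7 coat subunits rose in the libraries labelled Foxn3KO, by 1.24-fold to 1.86-fold, and none of the 3 chaperonin-like genes passed the test as higher. Bbs10 fell slightly and only just passed the threshold, and Mkks and Bbs12 did not pass. The share of all tested genes that passed was 21.9%, or 3795 of 17300, with 12.3% higher and 9.66% lower. The median log2 fold change was 0.67 for the coat, 0.09 for the chaperonin-like genes and -0.0047 for all tested genes. The members were chosen with earlier results known, so these counts are a description. The share of all tested genes whose groups did not overlap was not computed, so the separations given below are a description too. In bulk RNA, more cells of a type and more RNA per cell cannot be told apart.

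**Figure D1:**
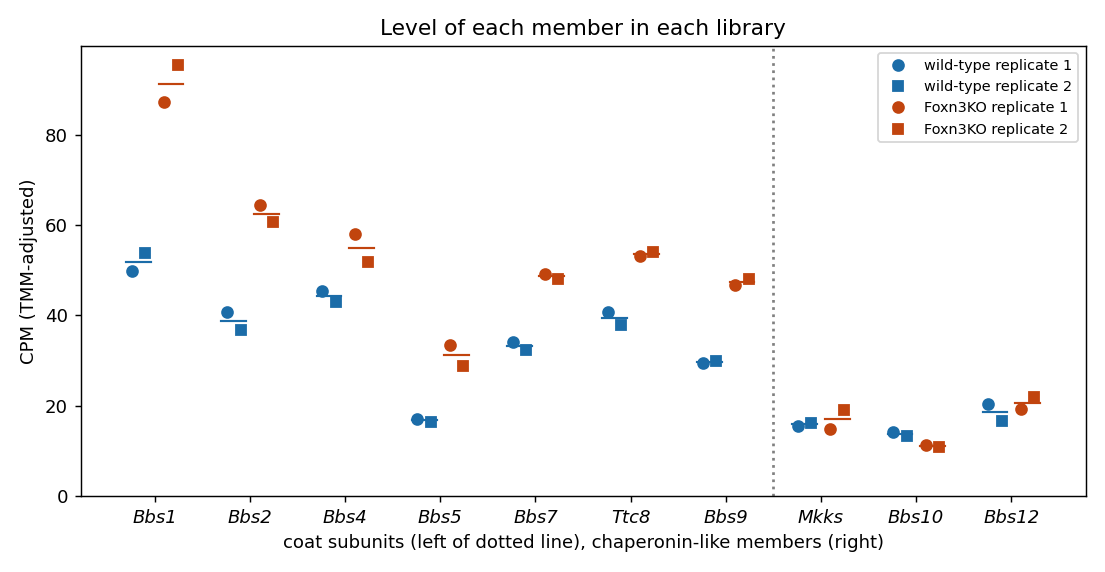
CPM of each member (vertical axis, linear) in each of the 4 libraries; points are libraries, short lines are group means, and the dotted line separates coat subunits from chaperonin-like genes. Each coat subunit has both Foxn3KO points above both wild-type points, as with Bbs1 at 87.2 and 95.4 against 49.9 and 53.7 CPM, whereas Mkks and Bbs12 overlap. How many of all tested genes separate in this way was not counted.

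The core of the coat is formed by Bbs2, Bbs7 and Bbs9, related proteins that the chaperonin complex brings together first. Bbs2 stood at 40.8 and 36.8 CPM in wild-type libraries and 64.4 and 60.6 CPM in Foxn3KO libraries. The groups did not overlap, and the log2 fold change was 0.69 (SE 0.064, edgeR adjusted p = 2.71e-07). Bbs9 stood at 29.44 and 29.997 CPM in wild-type and 46.7 and 48.0 CPM in Foxn3KO libraries, with embryos of a group nearly alike. Its log2 fold change was 0.67 (SE 0.063, edgeR adjusted p = 2.88e-07). Bbs7 stood at 34.2 and 32.4 CPM in wild-type and 49.2 and 48.0 CPM in Foxn3KO libraries, again without overlap, a log2 fold change of 0.55 (SE 0.063, edgeR adjusted p = 3.87e-06). The 3 core genes thus lay between 1.46-fold and 1.61-fold, and their 95% intervals overlap.

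Bbs1 is the subunit through which the small GTPase Arl6 recruits the coat to membranes. Among the coat genes chosen by name it had the most counts, 1238 and 1459 in wild-type and 2538 and 2136 in Foxn3KO libraries. In CPM these were 49.9 and 53.7 against 87.2 and 95.4. Both Foxn3KO libraries lay well above both wild-type ones, and the log2 fold change was 0.82 (SE 0.059, edgeR adjusted p = 9.40e-09). Bbs5, which has lipid-binding pleckstrin homology-like domains, had the highest fold of the members. It stood at 17.1 and 16.4 CPM in wild-type and 33.4 and 28.9 CPM in Foxn3KO libraries, a log2 fold change of 0.90 (SE 0.085, edgeR adjusted p = 3.43e-07). Its Foxn3KO libraries differed more from each other than its wild-type ones, with no overlap between the groups.

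Bbs4 and Ttc8 are the subunits made of tetratricopeptide repeats, a protein-binding fold, and they had the smallest rises of the coat. Ttc8 stood at 40.8 and 37.9 CPM in wild-type and 53.2 and 54.0 CPM in Foxn3KO libraries, a log2 fold change of 0.45 (SE 0.061, edgeR adjusted p = 3.45e-05). Bbs4 stood at 45.4 and 43.0 CPM in wild-type and 58.0 and 51.8 CPM in Foxn3KO libraries. The groups did not overlap, and the log2 fold change was 0.31 (SE 0.065, edgeR adjusted p = 0.00186). Without Foxn3KO replicate 1 the log2 fold change of Bbs4 was 0.23 and no longer passed (edgeR adjusted p = 0.0730); the other 6 coat genes passed without each library in turn. The 95% interval of Bbs4, 0.18 to 0.45, ended below the start of those of Bbs1 (0.69), Bbs2 (0.55), Bbs5 (0.72) and Bbs9 (0.54).

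Bbip1, the small subunit that joins Bbs4 to Ttc8 in the coat, was not among the genes chosen by name and is given for comparison. It stood at 77.1 and 70.1 CPM in wild-type and 75.8 and 72.0 CPM in Foxn3KO libraries, so the groups overlapped. Its log2 fold change was 0.01 with a 95% interval from -0.11 to 0.13 (edgeR adjusted p = 0.953), and its sign changed under total count scaling (-0.01), without wild-type replicate 2 (-0.06) and without Foxn3KO replicate 1 (-0.03). The lowest interval of the 7 coat genes, that of Bbs4, started above the end of this one.

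**Figure D2:**
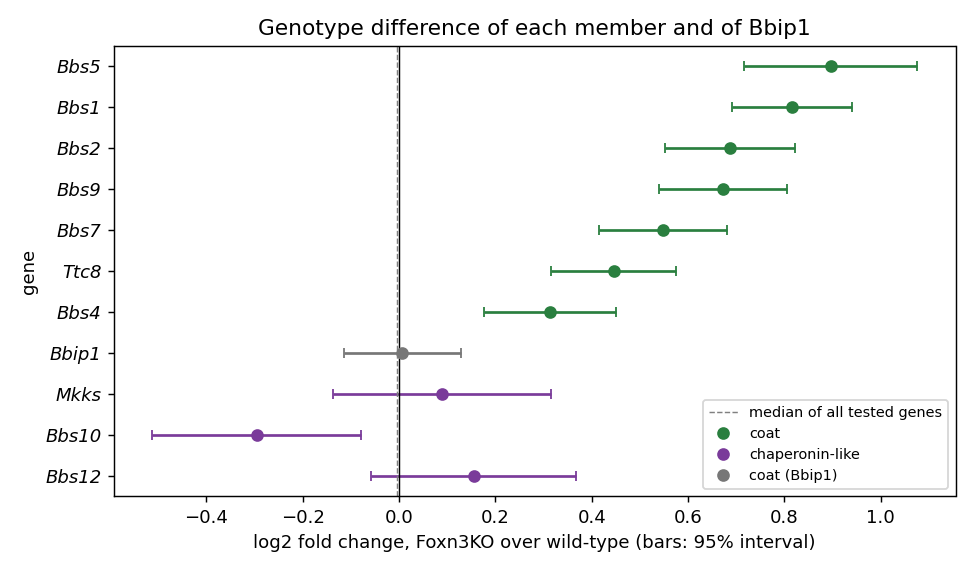
Log2 fold change of Foxn3KO over wild-type (horizontal axis) for the 10 members and Bbip1, with 95% intervals of the edgeR fit; green marks coat subunits, purple chaperonin-like genes and grey Bbip1, and the dashed line is the median of all tested genes. The 7 green intervals lie above 0, from Bbs4 at 0.31 to Bbs5 at 0.90; Bbip1 lies at 0.01 and Bbs10 at -0.29.

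The chaperonin-like genes had fewer counts than most coat genes, and their intervals were wider. Mkks, which resembles a subunit of the CCT ring, stood at 15.6 and 16.2 CPM in wild-type and 15.0 and 19.02 CPM in Foxn3KO libraries. The Foxn3KO libraries lay on either side of the wild-type ones. The log2 fold change was 0.09 (95% interval -0.14 to 0.32, edgeR adjusted p = 0.606), and it was -0.08 without Foxn3KO replicate 2.

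Bbs12, which binds Mkks and Bbs10 in the assembly complex, stood at 20.4 and 16.7 CPM in wild-type and 19.3 and 22.1 CPM in Foxn3KO libraries. The groups overlapped, since wild-type replicate 1 lay above Foxn3KO replicate 1. The log2 fold change was 0.15 (interval -0.06 to 0.37, edgeR adjusted p = 0.309), and the value rested on the wild-type library used: 0.29 without wild-type replicate 1, which passed (edgeR adjusted p = 0.0211), and 0.01 without wild-type replicate 2.

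Bbs10, the third of these genes, had 350 and 362 counts in wild-type and 333 and 244 in Foxn3KO libraries, or 14.1 and 13.3 against 11.4 and 10.9 CPM. Both Foxn3KO libraries lay below both wild-type ones, a log2 fold change of -0.29 (SE 0.103, interval -0.51 to -0.08, edgeR adjusted p = 0.0491). The call was lost with RLE size factors (edgeR adjusted p = 0.0501), with at least 10 counts in every library (edgeR adjusted p = 0.0503), in limma-voom (adjusted p = 0.0554) and in DESeq2 (adjusted p = 0.228). It was also lost without wild-type replicate 1 (-0.25), Foxn3KO replicate 1 (-0.33) and Foxn3KO replicate 2 (-0.26). The adjusted p ranged from 0.0350 to 0.228 over the alternatives that kept all libraries.

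The median of the coat exceeded that of the chaperonin-like genes by 0.58 on the log2 scale. Leaving out each library in turn gave 0.39 to 0.74, the lowest without Foxn3KO replicate 1. The upper interval bounds of Mkks (0.32), Bbs12 (0.37) and Bbs10 (-0.08) lay below the lower bounds of Bbs1, Bbs2, Bbs5, Bbs7 (0.42) and Bbs9. They were not all below those of Bbs4 and Ttc8 (0.32). The authors' deposited table, with shrunken fold changes, gives the coat genes log2 fold changes from 0.30 (Bbs4, adjusted p = 0.00462) to 0.87 (Bbs5, adjusted p = 9.44e-12). The authors' deposited table lists Mkks at 0.07 (adjusted p = 0.780), Bbs12 at 0.13 (adjusted p = 0.544) and Bbs10 at -0.23 (adjusted p = 0.221).

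Levels were then compared between genes per length, with the FPKM values of the authors, which are scaled to gene length and library size. In wild-type libraries Bbs2 (11.7 ± 0.837 FPKM, SD, n = 2) and Ttc8 (10.4 ± 0.541) were the highest of the members, below Bbip1 (16.6). Bbs12 (7.59) and Bbs4 (7.29) followed with overlapping libraries, then Bbs5 (6.83) and Bbs1 (6.73), which overlapped too, and Bbs7 (6.15). Mkks (4.91), Bbs9 (4.74) and Bbs10 (4.48) were the lowest, so in wild-type the chaperonin-like genes lay within the range of the coat or just under it.

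In Foxn3KO libraries the order changed. Bbs2 (18.8 ± 0.790 FPKM, SD, n = 2) stood above Bbip1 (16.7), followed by Ttc8 (14.1), Bbs5 (12.7) and Bbs1 (11.9), the last pair with overlapping libraries. Bbs4 (9.07), Bbs7 (8.997) and Bbs12 (8.47) overlapped in turn, and Bbs9 (7.57), Mkks (5.25) and Bbs10 (3.65) closed the list. Summed over the 7 coat genes, without Bbip1, the level was 55.0 and 52.6 FPKM in wild-type and 84.5 and 81.8 FPKM in Foxn3KO libraries. The ratio of means was 1.55. Summed over the 3 chaperonin-like genes the level was 17.8 and 16.2 against 16.3 and 18.5 FPKM, with overlapping groups. The ratio of coat to chaperonin-like sums was 3.10 and 3.25 in wild-type and 5.19 and 4.43 in Foxn3KO libraries.

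Within wild-type, replicate 2 had 13.7 times the lens marker sum of replicate 1, with coat sums of 52.6 and 55.0 FPKM. These 2 libraries also differ in sex pattern, and the part of the lens and pigment epithelium signals in the coat result was not tested. Without wild-type replicate 1, the library of other sex pattern, the coat median was 0.66 and all 7 coat genes passed.

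The rises were unequal, so the make-up of the transcripts of the 7 chosen coat genes differed between the groups. Bbip1, at 16.6 FPKM in wild-type and 16.7 FPKM in Foxn3KO libraries (means), is left out of the coat sums and shares. As a share of the summed coat FPKM, Bbs5 was 12.7% in each wild-type library and 16.1% and 14.4% in Foxn3KO libraries. Bbs1 went from 11.8% and 13.3% to 13.4% and 15.2%, without overlap but with wild-type replicate 2 close to Foxn3KO replicate 1. Bbs4 went the other way, from 13.6% and 13.5% to 11.3% and 10.5%. Ttc8 also held a smaller share, 19.6% and 18.98% against 16.6% and 17.4%, although its own level rose. Bbs7 was slightly smaller in Foxn3KO libraries (11.5% and 11.4% against 10.8% and 10.9%), and Bbs2 and Bbs9 overlapped between the groups. These shares sum to 100% within a library, so a gain of 1 subunit lowers the others.

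**Figure D3:**
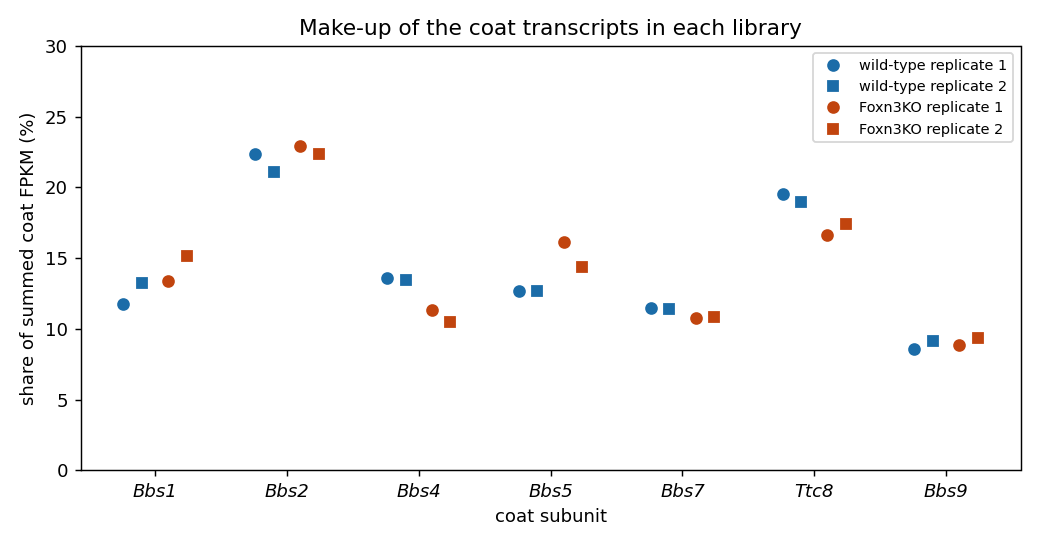
Share of each coat subunit in the summed FPKM of the 7 coat genes, without Bbip1 (vertical axis, percent), with 1 point per library. Bbs5 and Bbs1 take larger shares in the Foxn3KO libraries and Bbs4 and Ttc8 smaller ones, while Bbs2 lies between 21.1% and 22.9% in all 4 libraries.

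Promoter sequence is shown because the coat genes rose together and because the title of the series places Foxn3 in a network of transcription factors. RefSeq windows from 250 bases before to 50 bases after the annotated start (build GRCm38.p6; the submitters' processing notes name mm39 for the data) were matched for all 10 members. Both strands were searched for the X-box of RFX factors (GTTNCC followed, after any 3 bases, by GNAAC), for its short form GTTGCC, which can lie within a full X-box, for the forkhead core TAAACA and for GACGC, the FHL core that several forkhead proteins also bind. Bbs7 was the 1 member with a full X-box, a match that 0.804% of all 32851 windows and 0.925% of the windows of tested genes hold. The short form was in Bbs7, Bbs1 and Bbs5, all coat genes, against 12.5% of all windows and 12.7% of the windows of tested genes, and no member held TAAACA (13.4% of all windows and 8.65% of the windows of tested genes). GACGC was in 6 of 7 coat genes (not Bbs4) and in Mkks, against 27.2% of all windows and 43.3% of the windows of tested genes. Bbip1, searched for comparison, also held GACGC, at bases -234 to -230 from the start. A match is a description of letters and not a binding site.

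Stretches of members that hold these matches before the start or close after it are printed on the strand of the gene. The short form in Bbs5 and further GACGC matches in Bbs1 and Bbs7, deeper in the transcript, are left out. The match in Bbip1 is not printed. Capitals mark the X-box or its short form and GACGC or its reverse complement. In the Bbs7 stretch (chr3:36613470-36613529, minus strand) the X-box comes first and the reverse complement of GACGC second. The Bbs1 stretch (chr19:4906609-4906637, minus strand) crosses the start and holds the short form and then GACGC, and that of Ttc8 (chr12:98920564-98920592, plus strand) crosses the start with GACGC just after it. Those of Bbs2 (chr8:94098590-94098699, minus strand), Bbs5 (chr2:69647101-69647140, plus strand), Bbs9 (chr9:22475670-22475714, plus strand) and Mkks (chr2:136891487-136891526, minus strand) show GACGC alone. The start of Mkks in RefSeq was not found in a GENCODE transcript of the gene, unlike those of the other genes printed.
Bbs7: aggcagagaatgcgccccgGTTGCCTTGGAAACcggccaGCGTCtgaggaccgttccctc
Bbs1: tggctgagctgGTTGCCaaggcGACGCct
Bbs2: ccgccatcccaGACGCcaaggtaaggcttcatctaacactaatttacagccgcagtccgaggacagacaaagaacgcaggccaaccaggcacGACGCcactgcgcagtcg
Bbs5: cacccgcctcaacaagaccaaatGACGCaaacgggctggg
Bbs9: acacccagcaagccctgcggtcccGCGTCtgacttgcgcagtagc
Ttc8: cagcaaagccaGACGCctcccgctcgctg
Mkks: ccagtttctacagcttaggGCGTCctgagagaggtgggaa

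Set beside the values above, the gene with the full X-box, Bbs7, had a log2 fold change of 0.55, below the coat median of 0.67. Bbs1 and Bbs5, which held the short form and GACGC, had the highest values of the members, 0.82 and 0.90. Bbs2, Bbs9 and Ttc8, with GACGC alone, had 0.69, 0.67 and 0.45. Bbs4, which held none of the 4 motifs, passed at 0.31, the smallest rise of the coat. Mkks held GACGC and did not pass, and neither did Bbip1 (0.01), which also held it. Bbs12 (0.155) and Bbs10 (-0.29) held none of the motifs. Whether the motifs bear on these values was not tested.

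Neighbouring genes were examined because shared starts or overlaps can mix reads, and whether the authors' counting used strand is not given in the sources used here. In GENCODE (GRCm38, used for order only) Ttc8 lies next to the targeted gene on chromosome 12: Ttc8 and Foxn3 point towards each other, and none of the 4 genes between them, all non-coding or pseudogenes, was tested. Their log2 fold changes were 0.45 and 0.54, both higher in Foxn3KO libraries. The other 6 coat genes lie on chromosomes 2, 3, 8, 9 and 19.

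Bbs12 overlaps Cetn4, a centrin gene on the opposite strand whose start is 154 bases away. Cetn4 had 46 and 49 counts in wild-type and 140 and 98 in Foxn3KO libraries, a log2 fold change of 1.33 (SE 0.203, edgeR adjusted p = 0.000106). Bbs12 itself had 505 and 455 against 562 and 494 counts, so this pair on 1 locus differed in whether it passed. Mkks overlaps Slx4ip, whose start is 171 bases away on the opposite strand and which had a log2 fold change of -0.02 (edgeR adjusted p = 0.905). Bbs4 overlaps Adpgk on the opposite strand (0.11, edgeR adjusted p = 0.266). The other 8 annotated overlaps were not tested: AL731706.1, which shares the start of Mkks on the same strand, and AL731706.2, also over Mkks; Gm43439 over Bbs12; Gm25334 over Bbs1; and Gm2976, Gm16165, Gm16164 and Gm27639 over Bbs9.

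Genes that work with the coat were then described from 4 lists, which were written with earlier results known. In the counts, a gene rose or fell only if it passed the test. Of all tested genes, 12.3% passed as higher and 9.66% as lower. Of 12 partners and regulators 7 rose and none fell, with a median log2 fold change of 0.27. Arl6, the GTPase that recruits the coat through Bbs1, stood at 51.5 and 49.2 CPM in wild-type and 80.7 and 79.1 CPM in Foxn3KO libraries, a log2 fold change of 0.67 (edgeR adjusted p = 4.27e-08). This lay within the range of the coat genes. Lztfl1, which holds the coat back from the cilium, rose by 0.68 (edgeR adjusted p = 2.80e-08). Ift27, through which intraflagellar transport helps the coat leave the cilium, rose by 0.71 (edgeR adjusted p = 8.34e-08), and Rabl2, a small GTPase that helps start that transport, by 0.90 (edgeR adjusted p = 3.70e-10).

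Smaller rises were measured for Arl3, which releases lipid-anchored cargo in the cilium (0.42, edgeR adjusted p = 7.29e-06), the centriolar satellite protein gene Cep131 (0.37, edgeR adjusted p = 0.000464) and Tulp3, an adaptor for receptor entry (0.16, edgeR adjusted p = 0.0300). Tulp3 did not pass under total count scaling or DESeq2, nor without either Foxn3KO library. Besides Bbip1, 4 partners did not pass. The log2 fold changes of Rab8a, the GTPase of ciliary membrane growth, and of Rab3ip, its activator, were 0.05 (interval -0.05 to 0.16) and 0.01 (interval -0.11 to 0.14). Those of the satellite scaffold gene Pcm1 and of Ccdc28b, a modifier gene of the syndrome, were 0.0038 and -0.02. The signs of Rab3ip, Pcm1 and Ccdc28b changed under other settings.

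The subunits of the CCT ring, which folds tubulin and actin and acts beside the chaperonin-like genes, lay per length above all 10 members, from 41.9 to 122 FPKM in wild-type means. Of 8 genes 4 rose and none fell, with a median log2 fold change of 0.11. Cct3 (0.20, edgeR adjusted p = 0.00172), Cct7 (0.17, edgeR adjusted p = 0.00569) and Cct6a (0.14, edgeR adjusted p = 0.0268) had the smallest p-values. Under total count scaling 2 passed. With each library left out in turn, the median log2 fold change of the CCT genes ranged from 0.078 to 0.127. The largest CCT value was below the smallest of the 7 coat genes.

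Of 8 other genes linked to Bardet-Biedl syndrome outside the coat and the chaperonins and reported here, 7 rose and none fell, with a median log2 fold change of 0.52. Cfap418, a photoreceptor cilium base gene, stood at 57.2 ± 3.53 CPM in wild-type and 113 ± 1.202 CPM in Foxn3KO libraries (SD, n = 2 each), and its log2 fold change was 0.98 (edgeR adjusted p = 1.93e-10). Wdpcp, a planar polarity effector needed for cilia, rose by 1.09 (edgeR adjusted p = 7.83e-08), and Mks1, of the ciliary transition zone, rose by 0.76 (edgeR adjusted p = 1.66e-07). Scaper was the 1 reported gene that did not pass (0.14, edgeR adjusted p = 0.0987); it passed without wild-type replicate 1 (0.18, edgeR adjusted p = 0.0226). Trim32 (0.19, edgeR adjusted p = 0.0166) was lost in DESeq2 (adjusted p = 0.0652) and with either one of the Foxn3KO libraries left out (edgeR adjusted p = 0.0605 and 0.222).

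Receptors and other proteins that the coat carries or keeps in place were described from 8 cargo genes, of which 6 were tested. Sstr3 and Npy2r were not found by symbol in the deposited gene table. None of the 6 passed in edgeR, where 0 had an unadjusted p under 0.05. In DESeq2 the cargo gene Mchr1 had no adjusted p, and none of the others passed. Mchr1 had few counts, 13 and 17 in wild-type and 16 in each Foxn3KO library, and a wide edgeR interval (-0.82 to 1.04). The median log2 fold change of the cargo genes was -0.06, with a change of sign (0.0086) without Foxn3KO replicate 1. The Hedgehog transducer Smo stood at 156 ± 1.11 CPM in wild-type and 148 ± 1.204 CPM in Foxn3KO libraries (SD, n = 2 each), and its log2 fold change was -0.08 (interval -0.17 to 0.01, edgeR adjusted p = 0.226). That of the Hedgehog receptor gene Ptch1 was -0.07 (interval -0.17 to 0.02, edgeR adjusted p = 0.265), and that of Stx3, a membrane fusion gene, 0.07 (interval -0.04 to 0.18, edgeR adjusted p = 0.395).

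**Figure D4:**
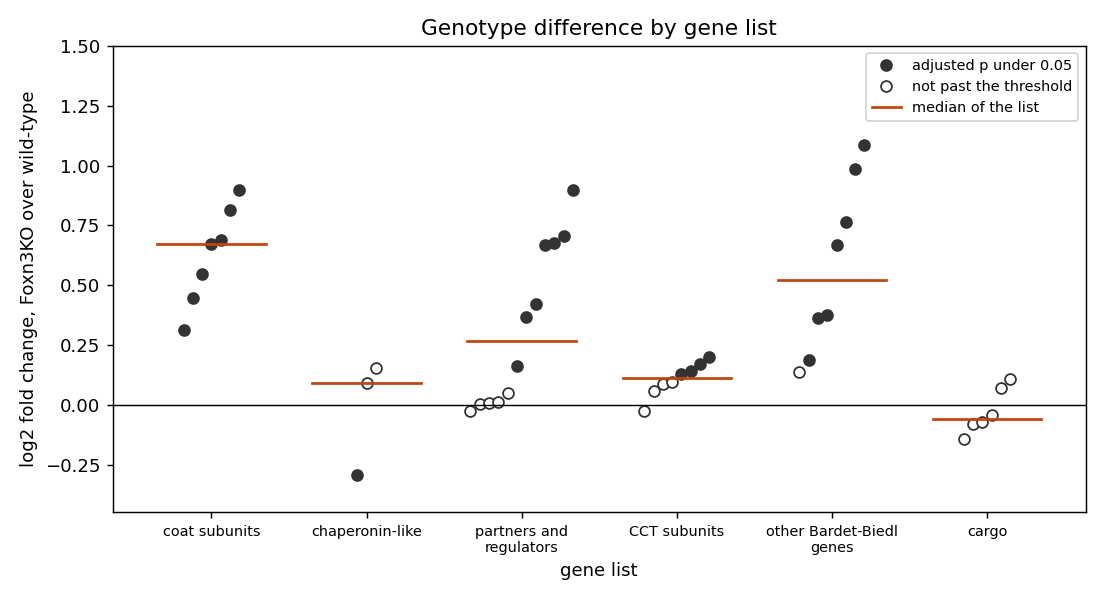
Log2 fold change of Foxn3KO over wild-type (vertical axis) for each tested gene of 6 lists; filled points passed an adjusted p of 0.05, and orange lines are list medians. The medians are 0.67 for coat subunits and 0.52 for other Bardet-Biedl genes, against 0.09 for chaperonin-like genes, 0.11 for CCT subunits and -0.06 for cargo.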

How the data were processed

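Retinal RNA of 2 wild-type and 2 Foxn3KO embryos was analysed, grouped by the sample labels. The authors deposited 1 table with unnormalized read counts per gene, FPKM values, a mean signal (not used), and log2 fold changes with p-values. Per the submitters' processing notes, the mm39 build and DESeq2 were used; the aligner, the counter, the annotation, the strand setting and the use of the molecular identifiers are not given in the sources used here. The smallest sum over libraries was 16 counts.

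From the counts, 1 repeated identifier was dropped, low genes were removed with filterByExpr (17300 left), and TMM-scaled counts were tested with edgeR 4.0.16 in R 4.3.3 (edgeR 4 quasi-likelihood fit, two-sided, genotype only). Adjusted p-values are Benjamini-Hochberg over all tested genes, with a threshold of 0.05. Intervals are 95% intervals of the fit. In simulated data, 79.5% of 200 genes with a 2-fold change were called, and 13 unchanged genes. Every member changed by less than 2-fold, and changes of that size were not simulated. Alternatives included DESeq2 1.42.0 and limma 3.58.1. Members and lists were chosen with earlier results of these data known. All members and partners, the 3 smallest p-values of other lists, and overlapping neighbours were named. Scaper, Trim32, Gpr161, Mchr1, Drd1, Six3 and Isl1 were named after their values were seen. In all, 3 genes of the fixed lists are not reported here, and list counts and medians leave them out. A limit of 3 counts was 0.103 to 0.134 CPM, counting error only.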

Additional observations from a re-analysis of the deposited data

How the results depend on the processing

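All 7 coat genes passed under RLE size factors, total counts, no filter, at least 10 counts in every library, DESeq2, limma-voom, the earlier edgeR fit and the replicate block, with a coat median of 0.652 to 0.674 over these. The count of chaperonin-like genes called was 0 under RLE size factors, the 10-count filter, DESeq2 and limma-voom; the gene lost was Bbs10. DESeq2 called 2433 genes; the cause was not tested. Under total counts the signs of Bbip1 (-0.0138), Rab3ip (-0.00717) and Pcm1 (-0.0166) changed, none of which passed.

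Leaving out each library in turn leaves 1 sample in a group, which the fit takes to vary like the other group. Genes called ranged from 2323 to 5068, members called from 6 to 8, coat genes called from 6 to 7 and chaperonin-like genes called from 0 to 1. The coat median ranged from 0.617 to 0.659, the chaperonin-like median from -0.0845 to 0.251, and their difference from 0.392 to 0.740. Signs changed for Mkks (-0.0845 to 0.259), Bbip1 (-0.0573 to 0.0810), Rab3ip (-0.0306 to 0.0605), Pcm1 (-0.0521 to 0.0613), Ccdc28b (-0.0503 to 0.00127), Gpr161 (-0.129 to 0.0521), Mchr1 (-0.0672 to 0.307), Drd1 (-0.353 to 0.0567) and the cargo median (-0.0733 to 0.00857).

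Nothing in the labels pairs embryos across the groups by number, and differences between replicates did not correlate (-0.00825 over genes). Adding the replicate block raised the genes called from 3795 to 4222, with 3791 in common, and no member changed its call.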
